A study of Homo sapiens with 18 samples.

Results

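The human globin genes form 2 clusters, and the 10 members described here are the functional genes of both. HBZ, HBM, HBA2, HBA1 and HBQ1 make up the alpha cluster on chromosome 16, and HBE1, HBG2, HBG1, HBD and HBB the beta cluster on chromosome 11. The rule takes them by name and uses no measured value, out of 19819 protein-coding genes on chromosomes 1 to 22 and X. The cells were HL-60/S4, an established human myeloid leukemia line, undifferentiated and untreated, in which the linker histones H1.2 and H1.5 had been mapped by xChIP-seq and xxChIP-seq. In xChIP the chromatin was fixed once and sonicated before the antibody was added, and in xxChIP the antibody met fixed, permeabilized cells, was cross-linked there by a second fixation, and the chromatin was sonicated afterwards. Either protocol was run with either antibody in 3 replicates, whose peaks the authors merged into 1 list, giving 4 lists. Where 4 values are given in the order of the lists, both xChIP lists come first, H1.2 before H1.5, followed by both xxChIP lists, again H1.2 before H1.5. The 6 Input samples were not used here.

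The lists hold only the positions of peaks, so the depth is unknown, and every value below is a single value per list, with no replicate error and no test. A stretch without a peak was not called enriched in that list, which is not a measurement of absent histone. A listed peak need not have been called in every replicate, which matters most where a value rests on 1 peak. Gene expression was not measured here, so whether these myeloid cells transcribe any globin gene is outside the data. Over chromosomes 1 to 22 and X the peaks covered 26.4%, 16.3%, 20.2% and 17.2% of the known sequence, in the order of the lists.

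Hemoglobin is built from alpha-like and beta-like chains, and in each cluster the genes lie in the order in which they are used during development. HBZ and HBE1 encode the embryonic zeta and epsilon chains, HBG2 and HBG1 the fetal gamma chains, HBA2 and HBA1 the alpha chains of fetal and adult life, HBB the adult beta chain and HBD the minor adult delta chain. HBM and HBQ1 encode the alpha-like mu and theta chains. In erythroid cells the alpha genes are driven by distant enhancers within the introns of the neighbouring gene NPRL3, and the beta genes by the locus control region upstream of HBE1. The alpha cluster is known as an open, early replicating domain near a chromosome end, and the beta cluster as a tissue-specific domain embedded among olfactory receptor genes.

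The clusters differed in base composition. From the HBZ start to the HBQ1 end, the alpha cluster occupied chr16:202643-231178 of hg19, 28.5 kb with a GC content of 58.5% and an observed/expected CpG ratio of 0.490. It began 142.6 kb from the first known base of the chromosome. The beta cluster, chr11:5246694-5291175, was 44.5 kb long with a GC content of 39.0% and a CpG ratio of 0.169. Among all end-to-end genome windows of the same length, 99.4% had a lower GC content than the alpha cluster and 44.03% a lower one than the beta cluster.

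The bases before a start site show this contrast. The RefSeq promoter table (GRCh38.p14) held 2 of the 10 members, HBM and HBD, and the same bases stood at their start sites in the hg19 sequence. For these members the 150 bases upstream of the start are given 5′ to 3′ on the strand of the gene. The HBM stretch lay outside the peaks of all 4 lists, while the HBD stretch lay wholly within an xChIP H1.5 peak. Capitals mark matches on either strand to 3 motifs of erythroid and other promoters. These were CCAAT, which is the core of the CCAAT box, then ATAAA, which resembles the TATA box of globin genes, and finally CACCC, which is bound by factors of the KLF family. A CACCC match on the opposite strand appears as its reverse complement.
HBM, chr16:215827-215976, plus strand: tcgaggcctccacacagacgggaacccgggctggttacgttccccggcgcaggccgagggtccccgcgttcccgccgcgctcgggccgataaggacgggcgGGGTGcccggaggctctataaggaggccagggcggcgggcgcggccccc
HBD, chr11:5255714-5255863, minus strand: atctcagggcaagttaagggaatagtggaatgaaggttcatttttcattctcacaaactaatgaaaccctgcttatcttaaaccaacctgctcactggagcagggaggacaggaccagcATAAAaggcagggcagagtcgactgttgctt
The HBM stretch was 76.0% GC with 21 CpG dinucleotides, and the HBD stretch 45.3% GC with 1. The median over the same stretch of 35116 promoters in the table was 60.0% GC. HBM held a CACCC match on the opposite strand starting 49 bases before its start, and 39.6% of these promoters held one on either strand. HBD held an ATAAA match starting 31 bases before its start, against 21.3% of promoters. Only exact matches were marked, so the tataa in the HBM stretch carries no capitals and was not counted. CCAAT, found in 23.5% of promoters, was not among the letters of either window.

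Sequence from a peak is shown for the beta cluster, as the central 150 bases on the plus strand of the 1130 bp upstream of HBD that both xxChIP lists covered.
Beta, both xxChIP lists, chr11:5258775-5258924: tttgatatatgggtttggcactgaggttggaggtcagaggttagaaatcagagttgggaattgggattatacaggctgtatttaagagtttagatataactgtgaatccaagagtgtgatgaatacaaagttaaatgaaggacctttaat
The whole segment was 43.0% GC and held 9 CpG dinucleotides, none of them among the bases shown.

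Over the whole clusters, alpha was covered only by xChIP H1.2 and beta by all 4 lists. xChIP H1.2 peaks covered 32.0% of the alpha cluster (9122 bp in 4 peaks) and 5.36% of the beta cluster (2386 bp in 1 peak). For xChIP H1.5 the alpha cluster held no peak, and 3 peaks covered 22.5% of the beta cluster. xxChIP H1.5 gave a similar pair of values, 0% for alpha and 22.5% in 4 peaks for beta. xxChIP H1.2 covered 0% of alpha and 3.08% of beta, in 1 peak. The alpha minus beta differences were thus 26.6, -22.5, -3.08 and -22.5 percentage points in the order of the lists, positive for xChIP H1.2 and negative for the others. The xxChIP H1.2 difference rested on a single peak of 1369 bp, and it was 0 when only peaks of at least 2000 bp were counted. With 10 kb added at both ends of the clusters, the xChIP H1.2 difference was 45.1 percentage points.

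**Figure D1:**
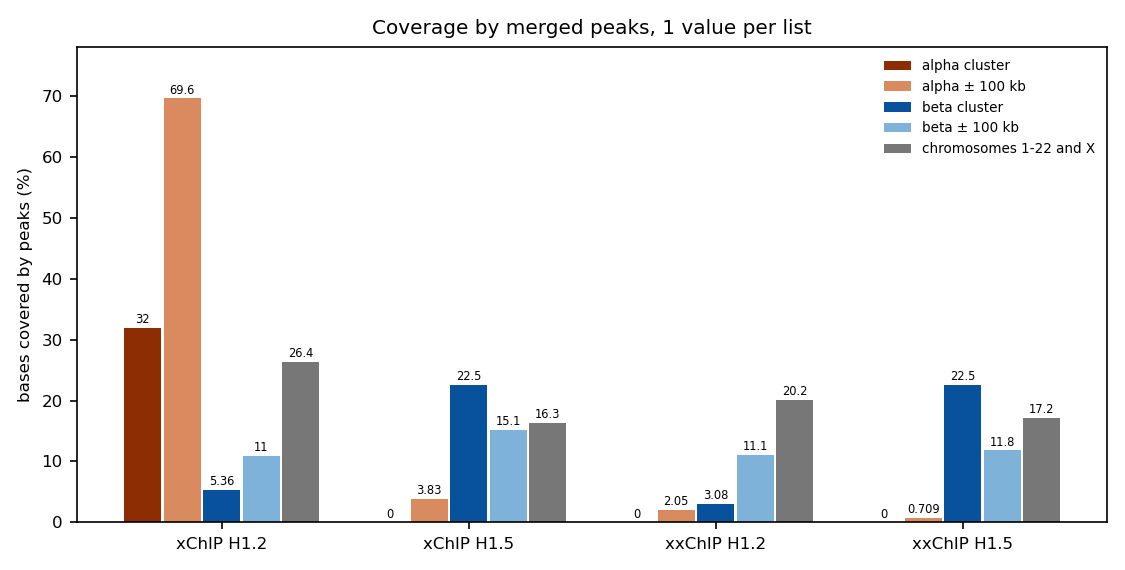
Bars give the share of bases covered by merged peaks (%, axis from 0) for each list in the alpha cluster, the beta cluster, each cluster with 100 kb on both sides, and chromosomes 1 to 22 and X. With 1 value per bar there is no error bar; the xChIP H1.2 bar of 69.6% for alpha with its flanks is the highest, and the alpha cluster without flanks is at 0 for the other 3 lists.

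With 100 kb added on both sides the contrast was wider for xChIP H1.2. In the order of the lists, the alpha region was then covered to 69.6%, 3.83%, 2.05% and 0.709%, and the beta region to 10.96%, 15.1%, 11.1% and 11.8%. Coverage of alpha by xChIP H1.2 was therefore 6.35 times that of beta, whereas beta was 3.95, 5.40 and 16.6 times as covered as alpha in the other 3 lists. Much of the alpha coverage lay in long peaks. Without peaks of 20 kb or more, xChIP H1.2 covered 31.8% of the alpha region and the difference from beta fell from 58.6 to 20.8 percentage points. That is narrower than the 26.6 percentage points of the clusters alone, which stayed the same without these peaks.

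**Figure D2:**
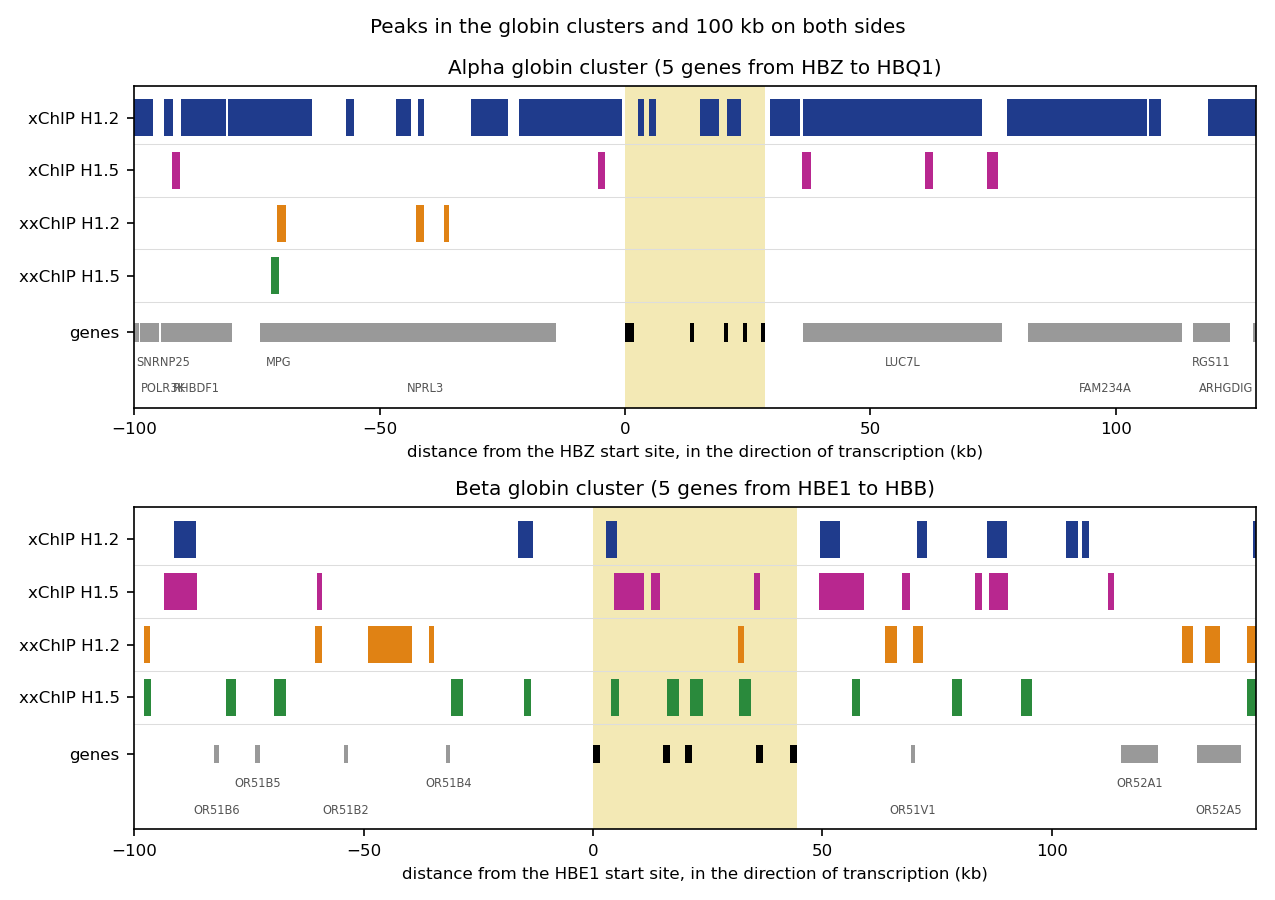
Merged peaks of the 4 lists (coloured blocks) and protein-coding genes (grey, globin genes black) are drawn to scale against distance in kb from the HBZ or HBE1 start site, with the clusters shaded. Long xChIP H1.2 peaks fill most of both alpha flanks and break up within the cluster, and all 4 lists have scattered peaks across the beta region.

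Along the alpha region the cluster itself was less covered by xChIP H1.2 than its surroundings. The 100 kb before HBZ was covered to 66.3% and the 100 kb after HBQ1 to 83.5%, against 32.0% in between. GC content differed too, at 53.8% before HBZ and 51.9% after HBQ1 against 58.5% in the cluster, and its part in this was not tested. A peak of 21074 bp, chr16:181068-202141, ended 502 bp upstream of the HBZ start site. The 4 peaks within the cluster were 1176 to 3850 bp long, and the first peak beyond it began 1760 bp downstream of the HBQ1 start site. Both xxChIP lists held no peak in the 100 kb after HBQ1, and before HBZ they covered 4.70% for H1.2 and 1.62% for H1.5. In the first 1 Mb of known sequence of chromosome 16, which contains the cluster, coverage was 61.8%, 6.22%, 1.29% and 1.19% in the order of the lists above. In the 1 Mb centred on the beta cluster it was 14.7%, 13.4%, 12.8% and 13.5%.

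Set against genome windows of the same length, the alpha region was near the end of the range for every list. Of 12172 windows, 93.8% were less covered by xChIP H1.2, while in the other 3 lists only 1.41%, 1.33% and 0.739% of windows were less covered. The GC content of this region was above that of 98.4% of the windows. Among the 397 windows within 2.5 percentage points of its GC content, median coverage was 51.9% (quartiles 38.6% and 70.4%), 15.0% (10.7% and 21.9%), 5.98% (3.34% and 9.42%) and 5.71% (3.01% and 10.3%) in the order of the lists. The xChIP H1.2 value of the alpha region lay between these quartiles, and its other values lay below the lower one. The alpha cluster alone, at 32.0%, lay between the quartiles of 29.2% and 72.2% for the 1221 windows of its own length and like GC content, whose median was 48.7%. In the other lists, where it was at 0%, so were 17.2%, 14.6% and 17.5% of all windows of that length. In the windows of like GC content the medians of these lists were 10.6%, 0% and 2.75%, and the lower quartiles 4.20%, 0% and 0%.

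The beta region lay nearer the middle. Of 11372 windows of its length, the shares less covered were 20.6%, 53.6%, 25.1% and 35.6% in the order of the lists. In the 5214 windows of like GC content the medians were 15.1%, 14.6%, 21.8% and 18.2%. The beta region was between the quartiles for both xChIP lists, and below the lower quartile for xxChIP H1.2 (15.3%) and xxChIP H1.5 (12.4%). The chromosomes themselves also differed. Over the whole of chromosome 16 the peaks covered 26.99%, 7.69%, 13.4% and 11.4% in the order of the lists. Over chromosome 11 they covered 26.2%, 16.5%, 18.9% and 16.4%. Chromosome, GC content and position on the chromosome differ between the clusters together with coverage. With 1 cluster of each kind they cannot be told apart, and the part of each was not tested.

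**Figure D3:**
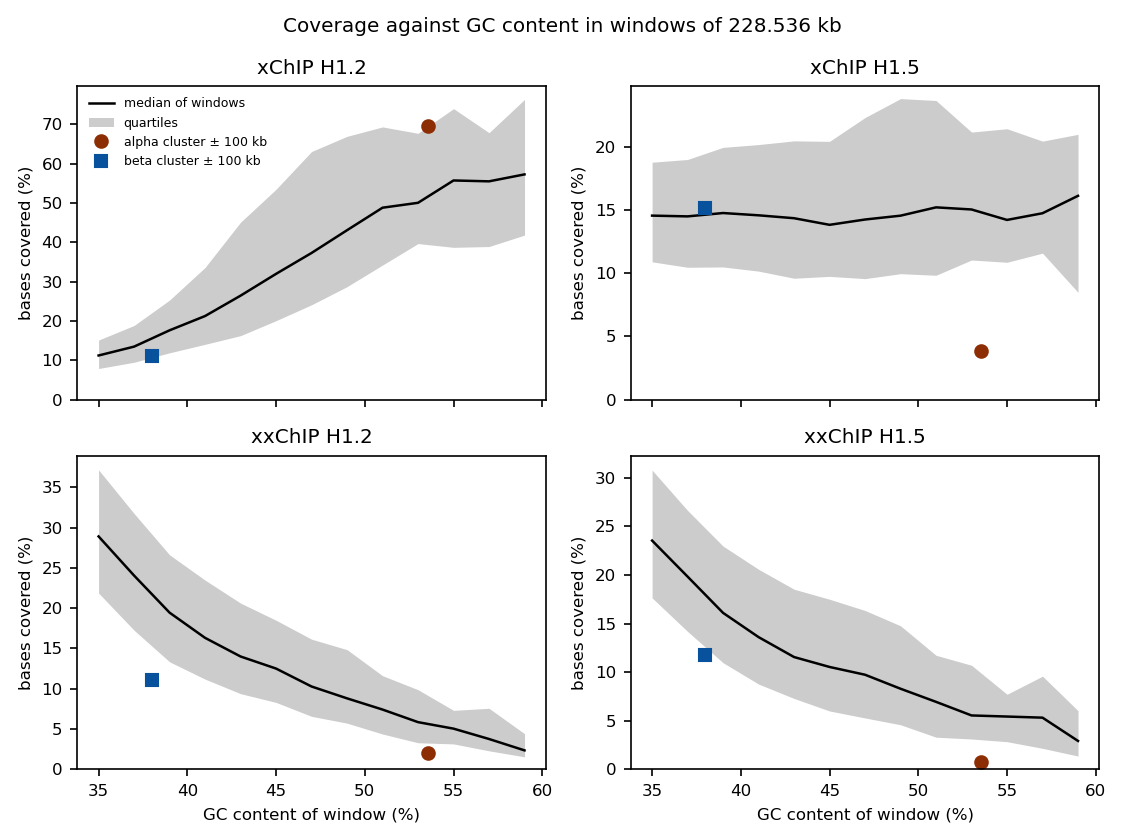
Each panel plots the share of bases covered (%) against GC content (%) for end-to-end windows of 228.536 kb, as a median line and a grey band between quartiles in classes of GC content. The circle (alpha) and the square (beta) mark the clusters with 100 kb on both sides; the circle lies below the band for xChIP H1.5 and both xxChIP lists.

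The share of bases that start a unique 50-mer, a stretch of 50 bases occurring once in the genome, was also uneven. It was 75.3% in the alpha cluster and 92.3% in the beta cluster, and only uniquely mappable reads had been kept by the authors. In the alpha flanks, which xChIP H1.2 covered more than the cluster, the share was 93.7% before HBZ and 90.6% after HBQ1. In the alpha duplicates it was 29.3% for HBA2 and 30.0% for HBA1, in HBZ 41.7%, and in the gamma duplicates 46.2% for HBG2 and 46.0% for HBG1. In the other 5 members it was at least 98.7%. HBA2 and HBA1 were 96.7% identical and HBG2 and HBG1 97.8% identical over the whole gene, so many 50-mers of these genes occur more than once. In the alpha cluster the share was 76.2% under xChIP H1.2 peaks and 74.9% outside them. In the beta cluster it was 96.1% under xChIP H1.2 peaks and 92.1% outside, and for the other 3 lists 90.5% to 92.4% under peaks and 92.2% to 92.8% outside. With 100 kb on both sides of beta it was 59.1% under xChIP H1.2 peaks and 95.2% outside, and 70.7% against 94.9% for xChIP H1.5. For the xxChIP lists it was 93.3% against 91.0% (H1.2) and 95.2% against 90.8% (H1.5). The part of mappability in these patterns was not tested. With coverage taken over bases that start a unique 50-mer, the 4 differences between the clusters without flanks kept their sign. The differences with 100 kb on both sides were not recomputed in this way.

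At the level of single genes, few members were overlapped. A gene was taken as its canonical transcript and counted from 1 shared bp. In the alpha cluster xChIP H1.2 overlapped 1 of 5 genes, where 81% of all protein-coding genes were overlapped by this list. In the beta cluster it overlapped 0 of 5. xChIP H1.5 overlapped 0 alpha and 1 beta gene (67.1% of all genes), xxChIP H1.2 none in either cluster (57.6%), and xxChIP H1.5 0 alpha and 2 beta genes (55.2%). The globin genes are short, from 721 to 1860 bp against a median of 23045 bp for all genes, and a longer gene has more bases to overlap.

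Promoters, the start site with 1000 bp on either side, are equal in length for every gene. xChIP H1.2 overlapped 3 of 5 alpha and 0 of 5 beta promoters, against 47.2% of all promoters. xChIP H1.5 overlapped 0 alpha and 2 beta promoters, against 20.6% of all. For xxChIP H1.2 no member promoter was overlapped (7.76% of all), and for xxChIP H1.5 the counts were 0 alpha and 2 beta promoters (7.02% of all). Over the 4 lists together, 4 of 10 genes and 6 of 10 promoters were touched by some peak, where 89.9% of all genes and 60.5% of all promoters were. Only 1 of the 10 start sites, that of HBD, lay within a peak of any list, against 42.9% of all start sites. By list, over all genes 35.7%, 9.27%, 3.11% and 3.04% of start sites lay in a peak, in the order of the lists.

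**Figure D4:**
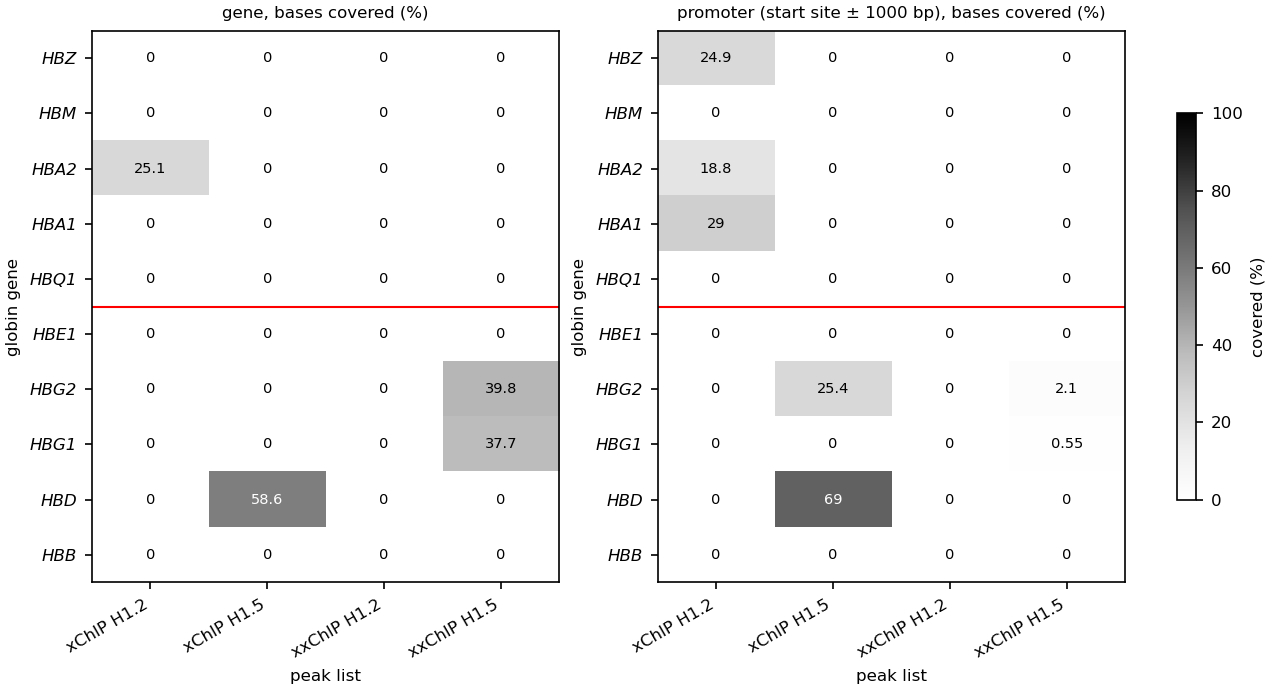
Shading and numbers give the share of bases (%) of each globin gene (left) and promoter (right) covered by each list, with the alpha members above the red line. Non-zero values of alpha members are in the xChIP H1.2 column alone, and those of beta members are in the columns of xChIP H1.5 and xxChIP H1.5.

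Among the alpha members, the embryonic gene HBZ was free of peaks and its promoter was covered to 24.9% by xChIP H1.2 (499 bp, the end of the long upstream peak). For xChIP H1.5 the nearest peak lay 3988 bp upstream of its start site, and for the xxChIP lists 35895 bp and 70461 bp upstream. HBA2 was the only alpha gene overlapped, by 210 bp or 25.1% of its length, all of it exonic and 97 bp of it coding, at the 3′ end. A single xChIP H1.2 peak, chr16:223500-226258, gave this overlap and filled most of the space up to HBA1. It began 625 bp downstream of the HBA2 start site and ended 421 bp upstream of the HBA1 start site, covering 18.8% of the HBA2 promoter window and 29.0% of that of HBA1. The overlap of these neighbouring windows is thus 1 peak counted for both.

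The remaining alpha members had no overlap. The nearest xChIP H1.2 peak to the HBM start site lay 2040 bp downstream and the nearest to HBQ1 1760 bp downstream. That peak near HBM, chr16:218017-221866, covered the whole of the pseudogene HBAP1, while the pseudogene HBZP1 held no peak of any list. The peak over HBAP1 ended 1009 bp upstream of the HBA2 start site, just outside the HBA2 promoter window. All 5 alpha start sites had their nearest xxChIP H1.2 peak at 35.9 kb or more and their nearest xxChIP H1.5 peak at 70.5 kb or more. The medians over all genes were 7397 bp and 8666 bp. Within the cluster the bases under xChIP H1.2 peaks were 52.5% GC and the other bases 61.3%, and the globin genes themselves were 66.9% to 71.7% GC.

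**Figure D5:**
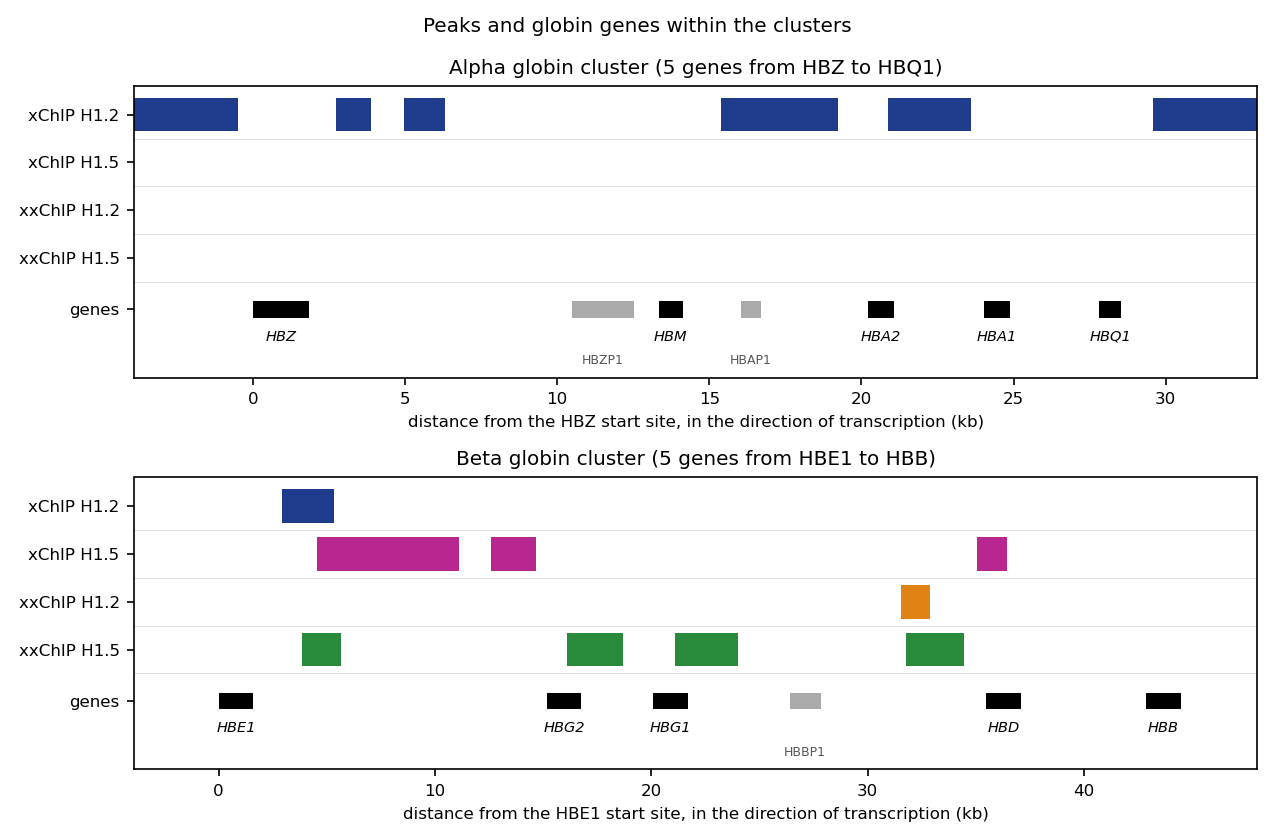
Merged peaks of the 4 lists and the globin genes (black, pseudogenes grey) are drawn to scale against distance in kb from the HBZ or HBE1 start site. In the alpha cluster the xChIP H1.2 blocks lie mainly between genes, and in the beta cluster the xxChIP H1.5 blocks reach the 3′ ends of HBG2 and HBG1 and an xChIP H1.5 block spans the start of HBD.

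In the beta cluster, HBD, the delta gene, was the most covered of the 10 members. The xChIP H1.5 peak chr11:5254750-5256129 covered 964 bp or 58.6% of the gene, 315 bp of it coding, and 69.0% of its promoter, with the start site inside. In the other lists HBD was at 0, although an xxChIP H1.5 peak began 1010 bp upstream of its start site, 9 bp outside the promoter window, and an xxChIP H1.2 peak 2572 bp upstream. These xxChIP peaks shared 1130 bp, 82.5% of the H1.2 peak bases in the cluster and 11.3% of the H1.5 peak bases.

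The bodies of the fetal gamma genes were covered by xxChIP H1.5 alone. It covered 635 bp or 39.8% of HBG2 and 599 bp or 37.7% of HBG1, in both cases the 3′ part. The peaks began 959 bp downstream of the HBG2 start site and 990 bp downstream of the HBG1 start site, and reached 42 bp and 11 bp into the promoter windows. The 2 genes thus carried peaks at nearly the same place within duplicated sequence. Upstream of the start site they differed, since an xChIP H1.5 peak lay 493 bp upstream of HBG2 and covered 25.4% of its promoter, whereas the nearest to HBG1 lay 5417 bp upstream.

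HBE1 and HBB, at the ends of the cluster, were at 0 for gene and promoter in all 4 lists. The nearest peaks to the HBE1 start site lay 2931 bp (xChIP H1.2), 4556 bp (xChIP H1.5), 31522 bp (xxChIP H1.2) and 3850 bp (xxChIP H1.5) downstream. For HBB they lay 6555 bp and 6302 bp downstream for the xChIP lists and 9984 bp and 8422 bp upstream for the xxChIP lists. The pseudogene HBBP1 held no peak.

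The lists met at few places in the beta cluster. No list covered 54.8% of its bases, exactly 1 list covered 38.5%, 2 lists 4.92% and 3 lists 1.71%, and no base was in all 4. xChIP H1.5 and xxChIP H1.5 covered almost equal lengths, 10012 bp in 3 peaks and 10027 bp in 4, and shared 1112 bp, 11.1% of each. Each list covered 22.5% of the cluster. Over the whole genome these lists shared 19.4% of the xChIP H1.5 bases and 18.4% of the xxChIP H1.5 bases. These genome shares were near the genome coverage itself, 17.2% by xxChIP H1.5 and 16.3% by xChIP H1.5. xChIP H1.2 and xxChIP H1.2 had 1 peak each in the beta cluster and shared no base there, and in the alpha cluster there was no xxChIP H1.2 peak to share. With 100 kb on both sides of alpha, they shared 3113 bp, 66.3% of the xxChIP H1.2 bases and 1.96% of the xChIP H1.2 bases. These shares were near the coverage of the region itself, 69.6% by xChIP H1.2 and 2.05% by xxChIP H1.2. Over the genome the shared parts were 21.8% of the xxChIP H1.2 bases and 16.6% of the xChIP H1.2 bases. Genome coverage was 26.4% by xChIP H1.2 and 20.2% by xxChIP H1.2. The 761 bp covered by 3 lists lay between HBG2 and HBE1.

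The regulatory neighbours were described over the same lists. NPRL3, a negative regulator of mTOR signalling whose introns hold the alpha enhancers, had 46.0% of its bases in 6 xChIP H1.2 peaks and 5.21% in 2 xxChIP H1.2 peaks, with 0 for both H1.5 lists. Its promoter was wholly within an xChIP H1.2 peak. The 25 kb upstream of HBE1, where the locus control region is known to lie, had 13.8% of its bases under xChIP H1.2 peaks, 5.76% under xxChIP H1.5 peaks and none under the other lists. Each of these was 1 peak, chr11:5304160-5307604 and chr11:5304680-5306120, the second lying wholly inside the first about 13 kb upstream of HBE1. Enhancer positions were not in the annotation used here, so overlap with single elements is not given.

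The other genes of the alpha flanks were mostly within xChIP H1.2 peaks. All 9 protein-coding genes there were overlapped, with a median of 85.5% of their bases, and 8 of 9 promoters were overlapped. MPG, a DNA repair glycosylase, was covered to 100%, and POLR3K, a subunit of RNA polymerase III, to 99.8%. LUC7L, a splicing factor, was covered to 90.1% and its promoter to 0%. xxChIP peaks reached MPG (25.2% for H1.2, 21.3% for H1.5) and NPRL3, and no promoter of the 9. The alpha globin promoters, at 0% to 29.0%, were thus less covered by xChIP H1.2 than 8 of these 9, which were at 96.4% to 100%.

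The beta flanks hold 7 olfactory receptor genes. None of them was overlapped by xChIP H1.2 or by either H1.5 list, and 2 were overlapped by xxChIP H1.2, OR51V1 to 36.0% and OR52A5 to 33.6%. xChIP H1.5 also covered 46.3% of the OR51V1 promoter. The 7 receptor genes were 933 to 9581 bp long, against a median of 23045 bp for all genes. Over all genes 81%, 67.1%, 57.6% and 55.2% were overlapped, in the order of the lists. A further 2 protein-coding records without a symbol overlap the cluster and are not described. The shorter lies within it, and the other runs into it across 424043 bp.

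Globins outside the clusters had patterns of their own. NGB, the neuronal neuroglobin, was covered to 91.9% and CYGB, the widely expressed cytoglobin, to 29.4% by xChIP H1.2, with 0 in the other lists. MB, the muscle oxygen store myoglobin, was covered by the xxChIP lists alone, to 19.1% for H1.2 and 18.3% for H1.5.

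A list of 12 regulators or partners of globin genes was counted in the same way, although most of these genes are far longer than a globin gene. xChIP H1.2 overlapped 11 of the 12 genes and 9 promoters, xChIP H1.5 8 genes and 3 promoters, xxChIP H1.2 5 genes and 1 promoter, and xxChIP H1.5 3 genes and no promoter. Over all protein-coding genes the shares, in the order of the lists, were 81%, 67.1%, 57.6% and 55.2% for genes and 47.2%, 20.6%, 7.76% and 7.02% for promoters. NFE2, a transcription factor that binds the locus control region, was covered to 100% by both xChIP lists and to 0% by both xxChIP lists. GATA1 and KLF1, the principal erythroid transcription factors, had 77.7% and 96.5% of their bases in xChIP H1.2 peaks. GATA1 also had 13.1% in xxChIP H1.2 peaks. These are among the highest of the list, whose median for xChIP H1.2 was 25.4%, against 25.5% over all genes. ZBTB7A was at 14.1%, and BCL11A at 3.77% for xChIP H1.2 and 18.9% for xxChIP H1.2. AHSP, the chaperone of free alpha chains, was the gene of the list whose body held no peak in any list, and 24.6% of its promoter lay in an xxChIP H1.2 peak. ATRX, a chromatin remodeller needed for alpha globin expression, was covered to 26.8%, 18.4%, 7.40% and 7.65% in the order of the lists.

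Across the genome, the genes most like each cluster were those whose own body with 100 kb on both sides had the nearest 4 coverages, by Euclidean distance in percentage points. For alpha they were FBXL19, GLIS2, FLYWCH1, PYCR1 and DPEP2, at distances of 1.16 to 3.19, and 4 of the 5 are on chromosome 16. FBXL19, for instance, was covered to 70.6%, 4.17%, 1.75% and 1.08%. For beta they were PAM, TBCA, GRIK1, ANTXR2 and TFEC, at distances of 1.25 to 2.84, on 4 other chromosomes. PAM was covered to 11.6%, 15.1%, 12.1% and 11.5%. The GC content of these regions was 50.6% to 58.8% for the alpha set and 35.1% to 40.1% for the beta set. Chromosome 16 as a whole was covered to 7.69% by xChIP H1.5, against 16.3% over chromosomes 1 to 22 and X.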

How the data were processed

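Bowtie2 was used by the authors for alignment to hg19, with uniquely mappable reads retained, and MUSIC for peak calling, after which the peaks of 3 replicates were merged. They deposited 1 list per combination of protocol and antibody, with chromosome, start and end and no score, count or p-value. Merging can lengthen peaks and hides the replicate support of each one. On chromosomes 1 to 22 and X the merged lists held 142645, 139701, 142997 and 138333 peaks, in the order of the lists. The paper gives a far smaller number per replicate, so many listed peaks were not called in every replicate. Samples were grouped by the labels. Positions are 1-based. Canonical transcripts came from GENCODE release 44 lifted to GRCh37, whose sequence is that of hg19. Covered bases were counted per gene, promoter, cluster and flank, and beside all protein-coding genes and end-to-end windows with at most 1% unknown bases. No test was made, since each group has 1 merged list. The members, neighbours and gene lists were chosen with earlier results of these data known, and all genes named follow a fixed rule: members, pseudogenes, neighbours, other globins, regulators and the 5 most alike genes per cluster. Counting was tested on 2000 simulated windows, all recovered. Python 3.11.15, numpy 2.4.6, pysam 0.24.0, samtools 1.23.1, edlib 1.3.9.post1 and matplotlib 3.10.9 were used. Alternatives changed the flank, promoter width, overlap rule, peak length, mappable bases and gene extent. Some sequences are not reported here. Input samples were not used here.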

Additional observations from a re-analysis of the deposited data

How the results depend on the processing

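No value has a replicate error, because the lists are merged. No replicate could be left out, and no paired analysis was possible because each group has 1 merged list. With no replicate error to judge by, a value was taken as moved when it changed by more than 1.5 times or to 0, a rule set after seeing the data. Of 36 alternative values of the alpha minus beta differences, 32 had not moved and none took the opposite sign. For the clusters, xChIP H1.2 went to 45.1 percentage points with 10 kb added at both ends, and xxChIP H1.2 to 0 with peaks of at least 2000 bp. With flanks, xChIP H1.2 went to 20.8 without peaks of 20 kb or more, and xxChIP H1.2 to -13.8 with flanks of 200 kb. Of 64 alternative counts of members, 47 stayed within 1.5 times. Most of these were counts of 0 that stayed at 0, and most alternatives to a count above 0 moved. For alpha xChIP H1.2, the 3 promoters became 1 at ± 500 bp, 5 at ± 2500 bp and 0 when 50% had to be covered, and the 1 gene became 0 at 50%. For beta xChIP H1.5, the 2 promoters became 1 at 50% and 1 with peaks of at least 2000 bp, where the 1 gene became 0. For beta xxChIP H1.5, the 2 promoters became 0 at ± 500 bp and 0 at 50%, and the 2 genes 0 at 50%. Whole gene records, an alternative chosen after seeing the data, run past several members. With them the genes overlapped were 3 (xChIP H1.2) and 1 (xChIP H1.5) for alpha, and 2, 3, 3 and 4 in the order of the lists for beta, and the beta xChIP H1.5 promoters became 0.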
